A study of Mus musculus with 19 samples.

Results

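The DNA replication and S-phase genes were followed as 38 mouse gene symbols that cover the replicative helicase and its loading and activation factors, the polymerases and primase, the sliding clamp and its loader, Okazaki fragment enzymes, deoxynucleotide supply, chromatin assembly at the fork and the turnover of Cdt1. They were chosen by name, and each was read from a probe set that carries no other gene symbol, the brightest on average over the 19 arrays where a gene had several. Of the 38 genes, 37 were measured this way among 22180 genes tested. Rfc4, a clamp loader subunit, lay only on a probe set shared with another gene symbol and was not analysed. RNA was hybridised to Affymetrix arrays, 1 array per sample, and the values are log2 intensities. The 7 tumors were angiosarcomas, cancers with endothelial features, from mice labelled aP2-Cre/+;DicerFlox/-. The 4 aortas, 4 quadriceps femoris muscles and 4 sternocleidomastoid muscles were wild type, and every sample had a mixed C57Bl/6 and 129X1/SvJ background. In the tumor mice the aP2 (Fabp4) promoter, which is active in adipocytes and in some endothelial and other cells, drives Cre recombinase, which removes the floxed Dicer allele. Cells that never express Cre keep that allele beside a null one. The labels gave no age, sex, time, batch or animal identity, and nothing said whether samples of a group came from separate animals, so the tests measure the spread between these samples, which may be technical in part. Genotype and tissue changed together between the tumors and every normal group and cannot be told apart.

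Replication begins when the origin recognition complex, Cdc6 and Cdt1 load the Mcm2-7 ring onto DNA in G1. On entry into S phase, kinases, Cdc45, the GINS complex and Mcm10 turn that ring into an active helicase. Polymerase alpha and primase lay down primers, polymerases delta and epsilon extend them, and the sliding clamp Pcna tethers polymerases and many partners to DNA. Many of these genes are E2F targets that are transcribed when cells leave quiescence, and they serve as markers of cycling cells in tumors. Adult aorta and skeletal muscle consist largely of cells that have left the cycle.

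Endothelial markers were highest in tumors, smooth muscle markers in aortas and skeletal muscle markers in muscles. Heart muscle and brown adipocyte markers were also highest in aortas, and markers of other cell types differed between samples. All 10 endothelial markers were higher in tumors than in aorta and than in muscle, and their summed level was 13.7 to 14.5 in tumors, 12.1 to 12.3 in aortas and 11.4 to 11.8 in muscles (log2 of the summed intensity). All 10 macrophage markers were also higher in tumors than in either tissue, at a summed level of 11.9 to 13.0 in tumors and 10.5 to 10.9 in aortas. Of 7 neutrophil markers 6 were higher than in either tissue, with sums of 8.6 to 11.8 in tumors and 8.0 to 8.3 in aortas. Erythroid markers summed to 11.5 in tumor 2, against 8.2 to 8.9 in the other tumors, and adipocyte markers to 8.4 to 13.8 in tumors and 13.2 to 13.5 in aortas. Of 7 smooth muscle markers 6 were lower in tumors than in aorta, with sums of 12.2 to 13.3 in tumors and 13.5 to 13.9 in aortas. Skeletal muscle markers summed to 12.9, 13.9, 12.3 and 13.1 in tumors 1, 2, 4 and 7 and to between 8.6 and 10.6 in tumors 3, 5 and 6, against at least 15.6 in each muscle. Heart muscle markers summed to 8.9 to 9.8 in tumors, against 13.5 to 14.1 in aortas. Brown adipocyte markers summed to 8.0 to 12.4 in tumors, against 14.3 to 14.6 in aortas. B cell markers summed to 10.1 and 9.7 in aortas 1 and 2, and to 7.8 and 8.4 in aortas 3 and 4. The part of these cell types in the results below was not tested. Counts were repeated with tumors 3, 5 and 6 alone, without tumors 4 and 5 and without aortas 1 and 2. These left out the tumors highest in skeletal muscle markers, those highest in brown adipocyte markers and the aortas highest in B cell markers. The same markers stayed in other samples. Brown adipocyte markers summed to at least 14.3 in each aorta and 12.9 in each muscle. Skeletal muscle markers summed to 11.7 and 11.4 in aortas 1 and 3, and B cell markers to 8.4 and 8.7 in tumors 4 and 7. No such repeat was made for the other cell types. In bulk tissue, fewer cycling cells and less RNA of these genes per cell cannot be told apart.

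Against aorta, 31 of the 37 genes were higher in tumors and 0 were lower at an adjusted p below 0.05 (limma, Benjamini-Hochberg adjustment over all genes), beside 18.6% of all genes called higher and 17.5% called lower. At an unadjusted p below 0.05, 32 were higher and 1 was lower, beside 43.4% of all genes in either direction. Their median difference was 0.92 log2 units, against -0.02 over all genes. All 7 tumors lay above all 4 aortas for 24 of the 37 genes, as they did for 12.2% of all genes. The largest differences were in Mcm5 and Pole, each about 4-fold. The genes that were not called were Orc6, Cdc45, Gins4, Pold2, Rfc2 and Fen1. With tumors 3, 5 and 6 alone, which carried the least skeletal muscle marker RNA, 29 genes were higher, beside 17.0% of all genes. With tumors 4 and 5 left out 30 were higher, and with aortas 1 and 2 left out 29 were higher. Of all 22180 genes, 4205 and 3172 were higher in those fits, against 4131 with all samples. In each of these subset fits 0 of the 37 were lower, beside 3197, 3857 and 3152 of all genes, in the order given.

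Against muscle (the mean of both muscle groups), 31 of the 37 genes were again higher in tumors, beside 25.3% of all genes. Pold2, a polymerase delta subunit, was the only one of the 37 that was lower, beside 25.7% of all genes. The median difference of the 37 genes was 1.02 log2 units, against -0.04 over all genes. All 7 tumors lay above all 8 muscles for 24 genes, as for 14.6% of all genes. Those not called in either direction were Gins4, Pola2, Rfc2, Fen1 and Rrm1. With tumors 3, 5 and 6 alone 29 were higher, with tumors 4 and 5 left out 29, and with aortas 1 and 2 left out 30. The shares of all genes called higher in these fits were 24.1%, 24.9% and 24.9%. Pold2 alone was lower in each, beside 20.9%, 23.9% and 25.2% of all genes. Both comparisons use the same 7 tumors, so they are not independent of each other.

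**Figure D1:**
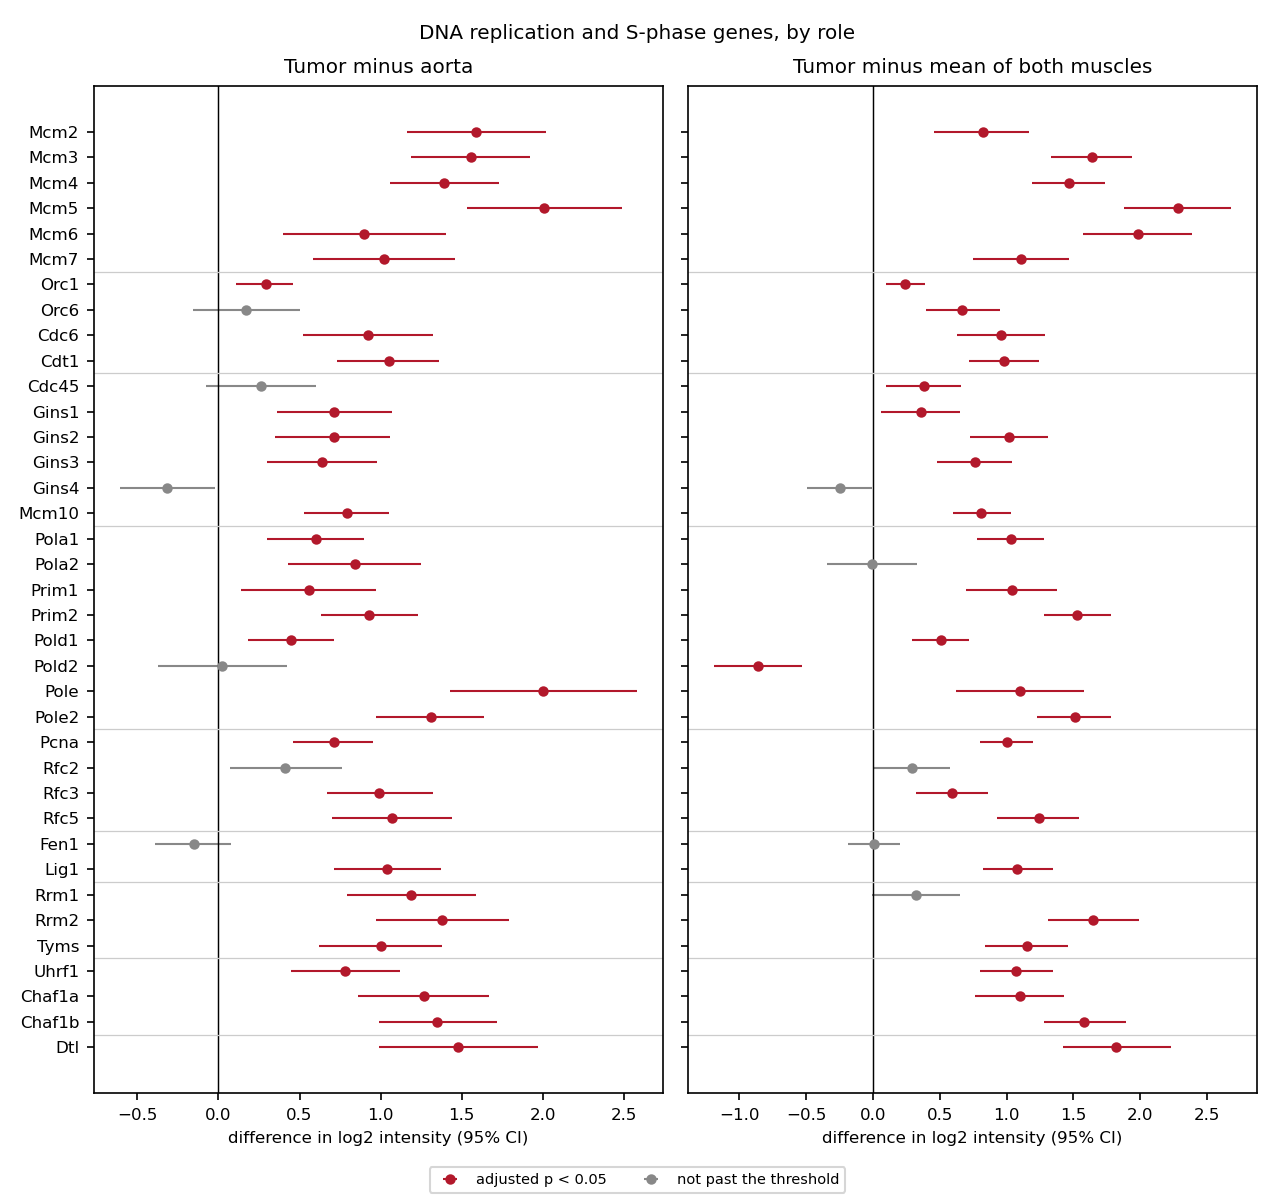
Difference in log2 intensity with its unadjusted 95% confidence interval for each of the 37 genes, tumor minus aorta on the left and tumor minus the mean of both muscles on the right; thin lines separate the roles. Intervals in red passed an adjusted p of 0.05: 31 lie right of 0 on the left, and 31 lie right of 0 and Pold2 lies left of 0 on the right.

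The promoters of these genes are shown because E2F sites are the element they are best known to share. RefSeq windows from 250 bases before to 50 bases after the transcription start (GRCm38.p6) were given for 30 of the 37 genes. E2F octamers (TTTGGCGC, TTTCCCGC, TTTGCCGC or TTTCGCGC, on either strand, overlaps allowed) were found in 15 of the 30, or 50%, against 704 of 27025 genes with a window, or 2.6%. The shorter CCAAT box, the site of the factor NF-Y, was found on either strand in 20 of the 30, or 66.7%, against 41.1% of all genes. Capitals below mark E2F octamers, and the start site is base 251 of each window. Mcm5 has overlapping octamers on opposite strands from bases 98 and 102, Mcm6 has overlapping ones from 141 and 145 and a further one from 204, and Cdt1 and Dtl have a single one from 283 and 243. In Pold2 none of the 4 octamers occurs in this window. A match is a description of these letters and not a measured site, and the absence of a match says nothing of the factor.
Mcm5, chr8:75109259-75109558, plus strand: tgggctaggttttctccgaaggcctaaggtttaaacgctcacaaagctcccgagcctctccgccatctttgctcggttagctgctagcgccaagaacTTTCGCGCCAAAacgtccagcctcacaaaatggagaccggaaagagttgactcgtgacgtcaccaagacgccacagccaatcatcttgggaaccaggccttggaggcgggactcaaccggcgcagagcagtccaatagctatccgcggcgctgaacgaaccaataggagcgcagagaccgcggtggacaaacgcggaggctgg
Mcm6, chr1:128359656-128359955, minus strand: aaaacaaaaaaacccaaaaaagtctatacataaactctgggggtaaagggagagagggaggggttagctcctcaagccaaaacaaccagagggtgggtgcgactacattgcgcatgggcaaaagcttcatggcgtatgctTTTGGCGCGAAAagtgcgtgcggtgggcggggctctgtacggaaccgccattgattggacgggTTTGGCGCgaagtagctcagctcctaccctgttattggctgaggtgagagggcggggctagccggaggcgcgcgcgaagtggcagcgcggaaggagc
Cdt1, chr8:122567765-122568064, plus strand: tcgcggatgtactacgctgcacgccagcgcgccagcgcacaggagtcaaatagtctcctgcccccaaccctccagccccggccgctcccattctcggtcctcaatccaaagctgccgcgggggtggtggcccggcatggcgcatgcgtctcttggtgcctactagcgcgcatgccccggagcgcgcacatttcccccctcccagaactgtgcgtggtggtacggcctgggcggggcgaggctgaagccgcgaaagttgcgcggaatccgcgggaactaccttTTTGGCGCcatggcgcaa
Dtl, chr1:191575495-191575794, minus strand: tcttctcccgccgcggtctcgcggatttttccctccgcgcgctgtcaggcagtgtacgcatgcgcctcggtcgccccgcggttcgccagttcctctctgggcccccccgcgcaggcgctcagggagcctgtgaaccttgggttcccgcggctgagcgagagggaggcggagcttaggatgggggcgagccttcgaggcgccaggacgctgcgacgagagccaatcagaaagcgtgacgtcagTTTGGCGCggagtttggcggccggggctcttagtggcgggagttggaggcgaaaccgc
Pold2, chr11:5878207-5878506, minus strand: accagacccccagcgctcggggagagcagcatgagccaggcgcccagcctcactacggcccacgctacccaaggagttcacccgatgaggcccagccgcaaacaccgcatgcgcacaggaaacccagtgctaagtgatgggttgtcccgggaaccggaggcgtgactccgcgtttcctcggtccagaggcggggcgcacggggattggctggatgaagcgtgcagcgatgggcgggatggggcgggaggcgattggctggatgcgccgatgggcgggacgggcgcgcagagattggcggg

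All 15 genes with an octamer were among those higher in tumors than in aorta, with a median difference of 0.99 log2 units. Of the 15 without one, 11 were higher, with a median of 0.84. Of the 7 genes without a promoter entry 5 were higher, with a median of 0.71. Each share is to be read beside the 18.6% of all genes called higher. With housekeeping centring the calls of Orc1 (0.11) and Pold1 (0.27), which have an octamer, were lost. So was that of Prim1 (0.38), which has none. The shares were not tested against each other, and the calls of other genes with an octamer were not counted.

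The genes of the Mcm2-7 ring, the engine of the replicative helicase, all rose, though by unequal amounts. Their differences ran from 0.90 to 2.01 log2 units against aorta and from 0.82 to 2.28 against muscle. All 6 subunits were higher in tumors than in aorta (median 1.48 log2 units) and than in muscle (median 1.55). Mcm5 had the largest differences of the 37 genes in both comparisons. Its tumor values had a lowest of 7.16, a median of 8.07 and a highest of 8.69, against 6.27, 6.11, 5.64 and 5.79 in the 4 aortas and 5.5, 5.63 and 5.94 as lowest, median and highest of the 8 muscles. No tumor overlapped either normal tissue. The difference was 2.01 ± 0.23 log2 units in the aorta comparison (SE; 4.03-fold, adjusted p = 1.22e-06) and 2.28 ± 0.19 in the muscle comparison (4.86-fold, adjusted p = 4.41e-09).

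Mcm3 and Mcm4 showed nearly equal differences against the normal tissues, 1.56 and 1.39 log2 units against aorta and 1.64 and 1.47 against muscle. Mcm2 and Mcm6 did not, and for them aorta and muscle themselves differed. Mcm2 averaged 7.63 ± 0.50 in tumors, 6.04 ± 0.25 in aortas, 6.87 ± 0.13 in quadriceps and 6.75 ± 0.19 in sternocleidomastoid (SD, n = 7, 4, 4 and 4), and so rose by 1.59 against aorta and by 0.82 against muscle. Mcm6 had the opposite order of normal tissues, with 8.02 ± 0.63 in tumors, 7.12 ± 0.17 in aortas, 6.00 ± 0.18 in quadriceps and 6.08 ± 0.03 in sternocleidomastoid. Its difference was 0.90 ± 0.24 against aorta (adjusted p = 0.00574), and 1.98 ± 0.20 in the muscle comparison (adjusted p = 5.71e-08). Tumor 7, at 7.05, lay inside the aorta range of 6.93 to 7.34 for this gene. Mcm7 rose by 1.02 against aorta and by 1.11 against muscle.

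Among the licensing factors, which place the ring at origins, Cdt1 and Cdc6 rose most. Cdt1 had a lowest value of 6.51, a median of 7.11 and a highest of 7.39 in tumors, against 6.08, 5.91, 6.02 and 5.84 in aortas and 5.86, 6.03 and 6.28 as lowest, median and highest in muscles. Every tumor lay above every normal sample. The difference was 1.05 ± 0.15 log2 units against aorta (adjusted p = 1.67e-05), and 0.98 ± 0.12 in the muscle comparison (adjusted p = 1.29e-06). Cdc6, the loading ATPase, rose by 0.92 against aorta and by 0.96 against muscle.

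The origin recognition complex subunits moved less. Orc1, its largest subunit, averaged 4.72 ± 0.12 in tumors, below the median of 5.42 over all values of the arrays. It was higher than aorta by 0.29 ± 0.08 (adjusted p = 0.011) and than muscle by 0.24 ± 0.07 (adjusted p = 0.00641). Both calls were lost when arrays were centred on housekeeping genes (differences of 0.11 and 0.08). They were also lost with tumors 5 to 7 alone (adjusted p = 0.184 and 0.214) and with tumors 3, 5 and 6 alone (adjusted p = 0.0769 and 0.078). The call against muscle was lost against quadriceps alone (0.18, adjusted p = 0.0967). Orc6, its smallest subunit, had tumor values of 6.92 to 7.87 with a median of 7.34, against 6.98, 7.12, 7.0 and 7.55 in aortas and 6.32, 6.65 and 6.93 as lowest, median and highest in muscles. The tumors overlapped the aortas widely, with a difference of 0.17 (unadjusted 95% confidence interval, as for all below, -0.16 to 0.50, adjusted p = 0.448). Against muscle Orc6 rose by 0.67 ± 0.13 (adjusted p = 0.000194).

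Helicase activation gave a mixed picture, with 4 of 6 genes higher than in aorta and 5 of 6 higher than in muscle. Mcm10, which helps the ring to open at origins, had tumor values of 5.57 to 6.23 with a median of 6.04, against 5.29, 5.12, 5.38 and 4.80 in aortas and 4.92, 5.16 and 5.29 as lowest, median and highest in muscles. The groups did not overlap, and the differences were 0.79 ± 0.13 (adjusted p = 5.27e-05) and 0.81 ± 0.10 (adjusted p = 1.55e-06). Cdc45, which bridges the ring and GINS, had tumor values of 5.72 to 6.80 with a median of 6.10, against 5.76, 5.89, 5.92 and 6.00 in aortas and 5.41, 5.85 and 6.00 as lowest, median and highest in muscles. Tumor 6, at 5.72, lay below every aorta and tumor 3, at 6.80, lay highest. Its difference from aorta was 0.26 (95% confidence interval -0.08 to 0.60, adjusted p = 0.239). Its difference from muscle was 0.38 ± 0.13 (adjusted p = 0.024), a call that was lost without tumor 3 (0.27, adjusted p = 0.0526), tumor 4 (0.34, adjusted p = 0.053), quadriceps 3 (0.32, adjusted p = 0.0562) or sternocleidomastoid 1 (0.34, adjusted p = 0.0503). It was also lost with median, quantile or housekeeping scaling (adjusted p = 0.0611, 0.0667 and 0.102) and against sternocleidomastoid alone (adjusted p = 0.0888).

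The subunits of GINS, a tetramer of equal parts that travels with the helicase, diverged on these arrays. Gins2 rose by 0.71 ± 0.17 against aorta and by 1.02 ± 0.14 against muscle, and Gins3 rose by 0.64 ± 0.16 and by 0.76 ± 0.13. Gins1 rose by 0.71 ± 0.17 against aorta (adjusted p = 0.00242), a call that was lost without aortas 1 and 2 (0.59, adjusted p = 0.0621). Its mean in each tissue was below the median of 5.42 over all values of the arrays, at 5.29 in tumors and 4.57 in aortas. Against muscle Gins1 differed by 0.36 ± 0.14 (adjusted p = 0.0399), and that call was lost in most of the fits that left out a sample, at its lowest 0.26 without tumor 3 (adjusted p = 0.0975). It was also lost with median, quantile or housekeeping scaling (adjusted p = 0.0883, 0.0512 and 0.162), with only the compared groups (adjusted p = 0.0504) and against either muscle alone (adjusted p = 0.0511 for quadriceps and 0.171 for sternocleidomastoid). Gins4 went the other way. It had tumor values of 8.18 to 9.04 with a median of 8.54, against 8.81, 8.58, 9.0 and 8.96 in aortas and 8.66, 8.75 and 8.94 as lowest, median and highest in muscles. Tumors 2, 4, 6 and 7 lay below every normal sample and tumor 3 lay above them all, and tumors 1 and 5 overlapped them. The differences were -0.32 against aorta (95% confidence interval -0.61 to -0.02, adjusted p = 0.0886) and -0.25 against muscle (-0.49 to -0.01, adjusted p = 0.0805). Without tumor 3, Gins4 was called lower than in aorta (-0.40, adjusted p = 0.0132) and than in muscle (-0.34, adjusted p = 0.00912). It was also called lower than in aorta without aorta 2 (-0.40, adjusted p = 0.0481) and than in muscle without tumor 5 (-0.30, adjusted p = 0.0453). Scaling changed the calls as well. Gins4 was lower than in aorta with quantile normalization (-0.37, adjusted p = 0.0343) or housekeeping centring (-0.49, adjusted p = 0.00442). Against muscle it was lower with median centring (-0.30, adjusted p = 0.0437) or housekeeping centring (-0.41, adjusted p = 0.00226).

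**Figure D2:**
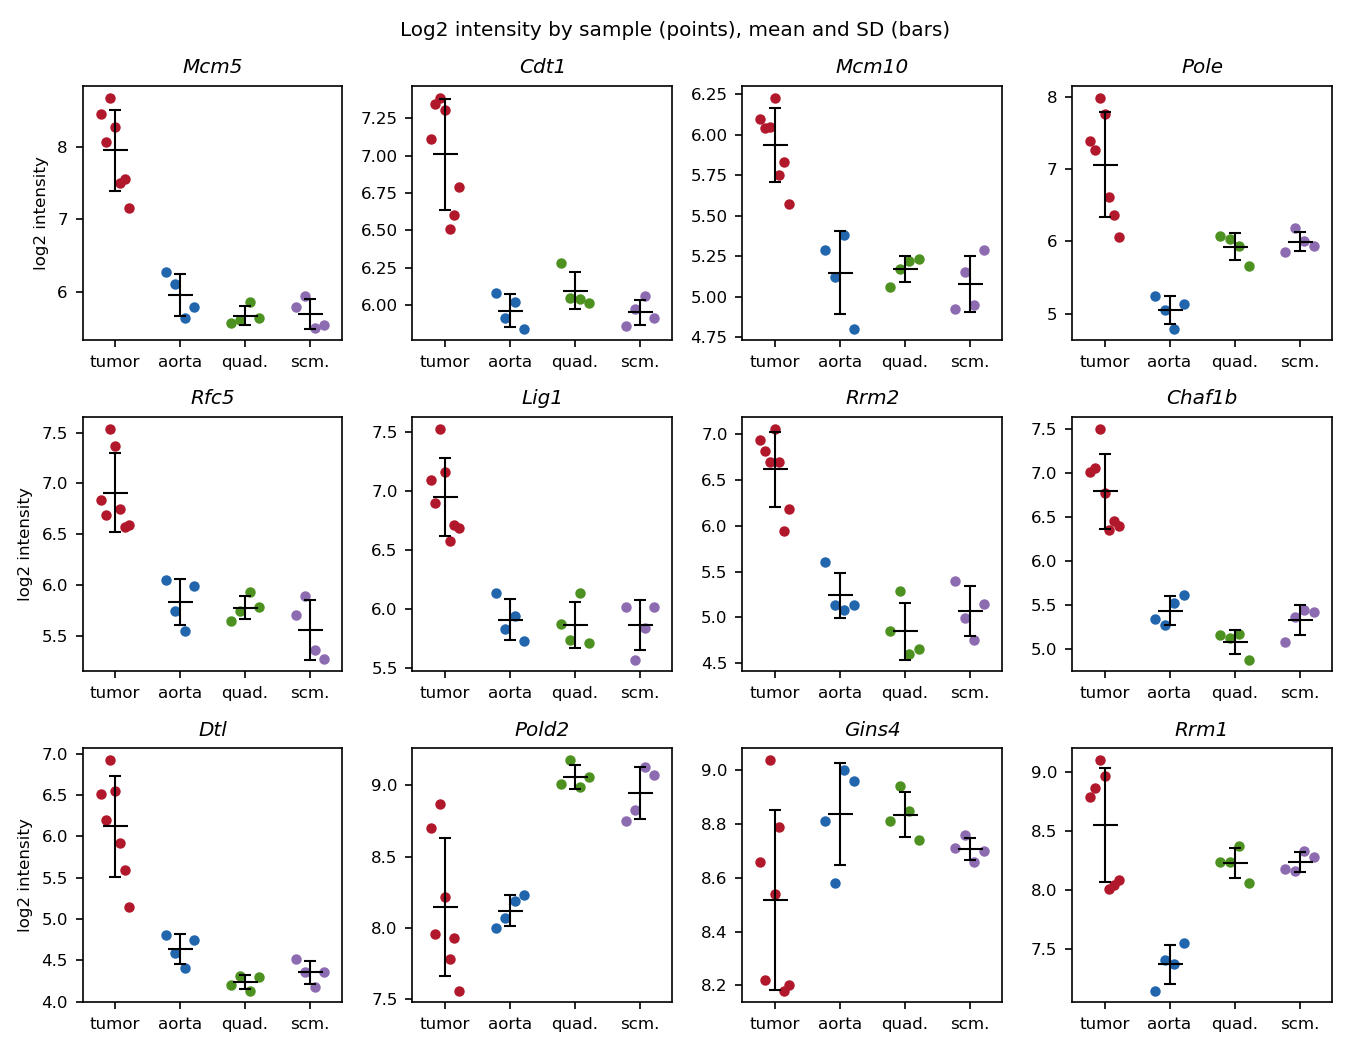
Log2 intensity of 12 of the genes in each sample (points), with the group mean and SD (bars), for tumors (n = 7), aortas, quadriceps (quad.) and sternocleidomastoid (scm.) muscles (n = 4 each); each panel has its own axis, which does not start at 0. The first 9 genes hold the tumors above every aorta, while Pold2 and Rrm1 are higher in muscle than in aorta and Gins4 overlaps in all tissues.

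Of the polymerase and primase genes, 7 of 8 were higher in tumors than in aorta, and 6 of 8 were higher and 1 lower than in muscle. Pole, the catalytic subunit of the leading-strand polymerase epsilon, had the widest spread. Its tumor values were 7.39, 7.26, 7.99, 7.76, 6.61, 6.36 and 6.06 for tumors 1 to 7, against 5.25, 5.05, 4.79 and 5.13 in aortas and 5.66, 5.97 and 6.18 as lowest, median and highest in muscles. All tumors lay above all aortas, and tumor 7 lay inside the muscle range. The difference was 2.0 ± 0.28 log2 units against aorta (4.01-fold, adjusted p = 1.06e-05) and 1.10 ± 0.23 against muscle (adjusted p = 0.000414). A second, dimmer Pole probe set differed by 0.25 ± 0.15 from aorta (adjusted p = 0.219) and by 0.19 ± 0.12 from muscle (adjusted p = 0.205), so the probe sets did not give the same call. Pole2, the second subunit of the same enzyme, rose by 1.31 and by 1.51.

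Polymerase alpha and primase start each strand with a short primer. Prim2, the large primase subunit, rose by 0.93 ± 0.14 against aorta and by 1.53 ± 0.12 against muscle, and Pola1, the catalytic polymerase alpha subunit, by 0.60 ± 0.14 and by 1.03 ± 0.12. Prim1, the primase catalytic subunit, rose by 1.04 ± 0.16 against muscle and by 0.56 ± 0.20 against aorta (adjusted p = 0.0328). The call against aorta was lost without tumor 1 (0.52, adjusted p = 0.0588), tumor 4 (0.50, adjusted p = 0.0633) or aorta 1, 2 or 3 (0.51, 0.51 and 0.53, with adjusted p = 0.0911, 0.0867 and 0.0799). It was also lost with housekeeping centring (0.38, adjusted p = 0.0669) and with only the compared groups (adjusted p = 0.106). The same held with tumors 5 to 7 alone (0.12, adjusted p = 0.581) and with tumors 3, 5 and 6 alone (adjusted p = 0.0682). Leaving out tumors 4 and 5 (adjusted p = 0.0656) or aortas 1 and 2 (0.42, adjusted p = 0.265) lost it too. Pola2, the accessory subunit, differed from its partners. Its tumor values ran from 7.14 to 8.56 with a median of 7.51, against 6.95, 6.87, 6.68 and 6.83 in aortas and 7.40, 7.78 and 7.91 as lowest, median and highest in muscles. It rose by 0.84 ± 0.20 against aorta (adjusted p = 0.00203), while its difference from muscle was -0.01 (95% confidence interval -0.34 to 0.33, adjusted p = 0.981).

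Polymerase delta copies the lagging strand. Pold1, its catalytic subunit, rose by 0.45 ± 0.13 against aorta and by 0.51 ± 0.10 against muscle, and the call against aorta was lost under housekeeping centring (0.27, adjusted p = 0.0768). Pold2, its regulatory subunit, had tumor values of 8.70, 7.96, 8.87, 8.22, 7.78, 7.93 and 7.56, against 8.0, 8.07, 8.19 and 8.23 in aortas, 9.01, 9.18, 8.99 and 9.06 in quadriceps and 8.75, 8.83, 9.13 and 9.07 in sternocleidomastoid. Only tumor 3 reached the muscle range, and the tumors lay on both sides of the aortas. The difference was 0.02 against aorta (95% confidence interval -0.37 to 0.42, adjusted p = 0.946) and -0.86 ± 0.16 against muscle (0.552-fold, adjusted p = 0.00011). Aorta was also lower than muscle for Pold2 (-0.88 ± 0.18, adjusted p = 0.000929). The sign of the difference from aorta turned with the samples and the scaling.

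Pcna, the sliding clamp, rose in both comparisons with little spread between tumors. Its tumor values had a lowest of 9.41, a median of 9.62 and a highest of 9.91, against 8.62, 9.18, 8.70 and 9.11 in aortas and 8.43, 8.55 and 8.85 as lowest, median and highest in muscles. No tumor overlapped a normal sample, and the differences were 0.71 ± 0.12 against aorta (1.63-fold, adjusted p = 7.17e-05) and 1.0 ± 0.10 against muscle (adjusted p = 3.12e-08). Of the measured clamp loader subunits, Rfc5 had tumor values of 6.57 to 7.54 with a median of 6.75, against 6.05, 5.75, 5.55 and 5.99 in aortas and 5.27, 5.73 and 5.93 as lowest, median and highest in muscles. It rose by 1.07 ± 0.18 (adjusted p = 8.18e-05) and by 1.24 ± 0.15 (adjusted p = 6.03e-07) without overlap. Rfc3 rose by 0.99 ± 0.15 against aorta and by 0.59 ± 0.13 against muscle.

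Rfc2 was the clamp loader gene that was not called. Its tumor values ran from 6.22 to 7.50 with a median of 6.83, against 6.28, 6.30, 6.57 and 6.68 in aortas and 6.37, 6.56 and 6.76 as lowest, median and highest in muscles. Tumor 6 alone lay below all normal samples, and tumors 1, 2, 3, 4 and 7 lay above them all. The difference was 0.41 against aorta (95% confidence interval 0.07 to 0.76, adjusted p = 0.0595) and 0.29 against muscle (0.01 to 0.58, adjusted p = 0.0809). Without tumor 6 both were called (0.52, adjusted p = 0.00567, and 0.40, adjusted p = 0.00668), and without tumor 5 the one against aorta was (0.45, adjusted p = 0.043).

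Okazaki fragment maturation joins the lagging strand. Lig1, the ligase that seals the fragments, had tumor values of 6.58 to 7.53 with a median of 6.90, against 6.14, 5.83, 5.94 and 5.73 in aortas and 5.57, 5.86 and 6.14 as lowest, median and highest in muscles. It rose without overlap by 1.04 ± 0.16 (adjusted p = 2.73e-05) and by 1.08 ± 0.13 (adjusted p = 5.89e-07). Fen1, the nuclease that trims the flaps, depended on the probe set. The brighter one, used here by the rule, had tumor values of 4.80 to 5.21 with a median of 4.99, against 5.42, 5.01, 5.31 and 4.91 in aortas and 4.65, 5.03 and 5.24 as lowest, median and highest in muscles, and each group mean was below the median of 5.42 over all values of the arrays. All groups overlapped, and the difference was -0.15 against aorta (95% confidence interval -0.39 to 0.08, adjusted p = 0.322) and 0.01 against muscle (-0.19 to 0.20, adjusted p = 0.971). The other probe set, dimmer in the normal tissues, averaged 5.31 ± 0.34 in tumors and 4.43 ± 0.05 in aortas, a difference of 0.88 ± 0.16 (adjusted p = 0.000174), and was higher than muscle by 0.49 ± 0.13 (adjusted p = 0.00333).

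All 3 genes of deoxynucleotide supply were higher in tumors than in aorta, and Rrm2 and Tyms were also higher than in muscle. Rrm2, the S-phase subunit of ribonucleotide reductase, had tumor values of 5.94 to 7.06 with a median of 6.70, against 5.60, 5.14, 5.08 and 5.14 in aortas and 4.60, 4.92 and 5.4 as lowest, median and highest in muscles. It rose without overlap by 1.38 ± 0.20 (adjusted p = 1.61e-05) and by 1.65 ± 0.16 (adjusted p = 4.63e-08). A second Rrm2 probe set was near the bottom of the scale, at 2.65 in tumors and 2.66 in aortas, and was not called. Tyms, thymidylate synthase, rose by 1.0 ± 0.18 and by 1.15 ± 0.15.

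Rrm1, the large subunit of the same reductase, was high in muscle. Its values were 8.79, 8.87, 9.11, 8.97, 8.01, 8.04 and 8.08 in tumors 1 to 7, against 7.14, 7.40, 7.37 and 7.55 in aortas and 8.06, 8.24 and 8.37 as lowest, median and highest in muscles. All tumors lay above all aortas (difference 1.19 ± 0.19, adjusted p = 5.69e-05). Against muscle, tumors 1 to 4 lay above the range, tumors 5 and 6 lay below it and tumor 7 lay within it, and the difference was 0.32 (95% confidence interval -0.01 to 0.65, adjusted p = 0.0971). Without tumor 5, 6 or 7 it was called (0.41, 0.41 and 0.40, with adjusted p = 0.0282, 0.0334 and 0.0385).

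The chromatin genes and Dtl rose in both comparisons. Chaf1a and Chaf1b encode subunits of the assembly factor that deposits histones behind the fork. Chaf1b had tumor values of 6.35 to 7.50 with a median of 6.77, against 5.34, 5.27, 5.52 and 5.62 in aortas and 4.88, 5.17 and 5.45 as lowest, median and highest in muscles. It rose without overlap by 1.35 ± 0.17 (adjusted p = 5.23e-06) and by 1.58 ± 0.14 (adjusted p = 1.65e-08). Chaf1a rose by 1.27 and by 1.10. Uhrf1, which carries DNA methylation through replication, rose by 0.78 and by 1.07.

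Dtl is the substrate receptor of the ubiquitin ligase that destroys Cdt1 during S phase. Its values were 6.51, 6.20, 6.93, 6.55, 5.92, 5.59 and 5.15 in tumors 1 to 7, against 4.81, 4.59, 4.41 and 4.74 in aortas and 4.13, 4.30 and 4.52 as lowest, median and highest in muscles. Every tumor lay above every normal sample. The difference was 1.48 ± 0.23 against aorta (2.79-fold, adjusted p = 4.86e-05) and 1.82 ± 0.19 against muscle (3.54-fold, adjusted p = 1.28e-07), so Cdt1 and the gene for its turnover were both higher.

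The order of the tissues was set mostly by the tumors. The tumor mean was the highest of the 4 tissues for 33 genes, the aorta mean for Gins4 and Fen1, and the quadriceps mean for Pola2 and Pold2. For Gins4 the aorta and quadriceps means were both 8.84 after rounding. The other Fen1 probe set had its highest mean in tumors (5.31) and its lowest in aortas (4.43). The lowest mean was in aorta for 9 genes, in quadriceps for 13 and in sternocleidomastoid for 14, and Gins4 alone was lowest in tumors. The mean over the 37 genes was 6.53 to 7.43 in tumors, 6.00 to 6.12 in aortas, 5.99 to 6.09 in quadriceps and 6.00 to 6.06 in sternocleidomastoid, so the 3 normal tissues overlapped in this mean and no tumor overlapped them.

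Between aorta and muscle, 27 of the 37 genes were not called. Aorta was higher for 4 genes, Mcm6 (1.08 ± 0.23, adjusted p = 0.00117), Prim2 (0.60 ± 0.14, adjusted p = 0.00235), Orc6 (0.51 ± 0.15, adjusted p = 0.0153) and Pola1 (0.43 ± 0.14, adjusted p = 0.023), beside 17.0% of all genes. Aorta was lower for 6 genes, Pole (-0.91), Pold2 (-0.88), Rrm1 (-0.87), Pola2 (-0.85), Mcm2 (-0.77) and Rfc3 (-0.41), beside 15.3% of all genes. Both shares were close to or below those backgrounds. The Orc6 call was lost without aorta 4 (0.38, adjusted p = 0.0885), that of Pola1 without aorta 2 or 4 (0.39 and 0.42, with adjusted p = 0.0763 and 0.0551), and that of Rfc3 without any of several samples, at its smallest -0.28 without aorta 2 (adjusted p = 0.21). With aortas 1 and 2 both left out, Pole (-1.0, adjusted p = 0.0642), Pola1 (0.38, adjusted p = 0.181) and Rfc3 (-0.21, adjusted p = 0.505) were not called. The second, dimmer Pole probe set differed by -0.05 between aorta and muscle (adjusted p = 0.828). The muscles gave 0 calls among the 37 genes in either direction (limma), beside 0.234% of all genes higher and 0.198% lower in sternocleidomastoid. At an unadjusted p below 0.05 the count was also 0, beside 7.1% of all genes in either direction. The differences ran from -0.28 (Pola2) to 0.24 (Chaf1b), sternocleidomastoid minus quadriceps. Each test used 1 estimate of spread per gene over all 4 tissues. These genes spread most in tumors, with a median SD of 0.39 against 0.13 in quadriceps and 0.17 in sternocleidomastoid. Small differences between normal tissues may therefore go uncalled. With only the compared groups, 8 genes were higher and 7 lower in aorta than in muscle, beside 4927 and 3964 of all genes. Between the muscles the count stayed 0.

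**Figure D3:**
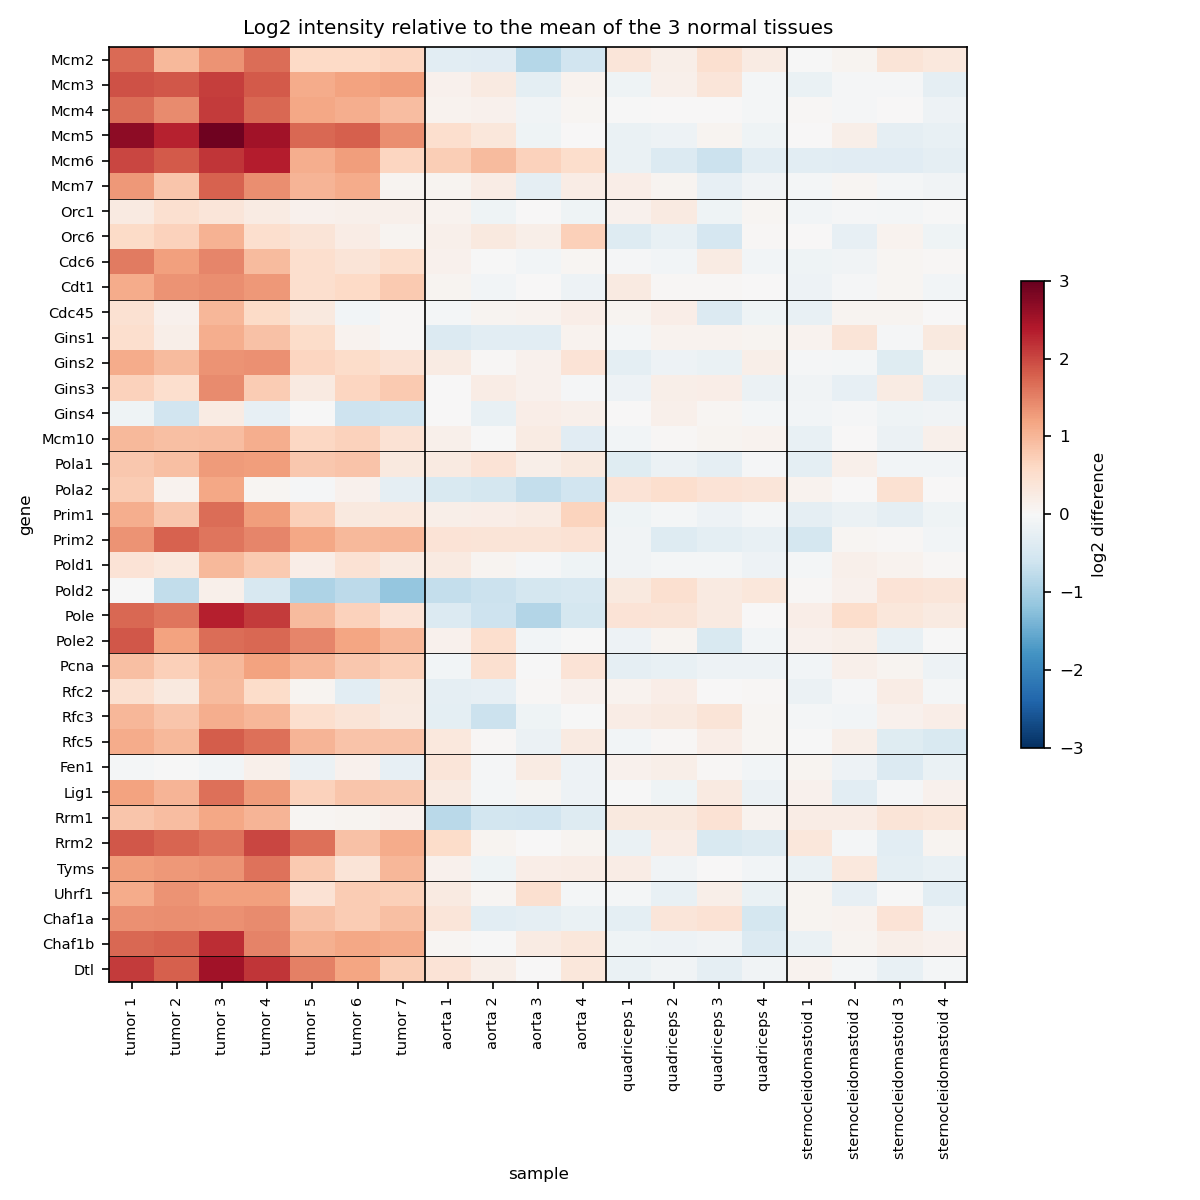
Log2 intensity of the 37 genes (rows, grouped by role) in the 19 samples (columns), each row relative to the mean of the 3 normal tissues; red is higher and blue lower. Tumors 1 to 4 are the reddest columns, tumors 5 to 7 are paler, and Pold2, Gins4 and Fen1 show no red block.

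The 7 tumors differed among themselves in these genes more than the normal samples did. The SD of a gene over the tumors had a median of 0.39 log2 units (0.12 to 0.73), against 0.21 for all genes, and 34 of the 37 lay above that value. In aorta the median SD was 0.19 against 0.16 for all genes, in quadriceps 0.13 against 0.14, and in sternocleidomastoid 0.17 against 0.16. The widest genes were Pole (0.73), Mcm6 (0.63) and Dtl (0.62). The narrowest were Orc1 (0.12), Fen1 (0.15) and Pcna (0.18).

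The order of the tumors recurred over many of the genes. The mean over the 37 genes was 7.16, 6.99, 7.43, 7.23, 6.71, 6.62 and 6.53 in tumors 1 to 7 (SD 0.34). Tumor 3 was the highest tumor for 23 genes, tumor 4 for 8, and tumors 1 and 2 for 3 each. Tumor 7 was the lowest for 17, tumor 6 for 11 and tumor 5 for 9. Tumor 3 lay above every aorta for 36 of the 37 genes and tumor 7 for 27, beside 31.6% and 32.9% of all genes. The ring genes alone averaged 8.33 in tumor 3 and 7.10 in tumor 7, and the polymerase and primase genes 7.61 and 6.48. The deoxynucleotide genes peaked instead in tumor 4 (8.08) and were lowest in tumor 6 (6.98).

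**Figure D4:**
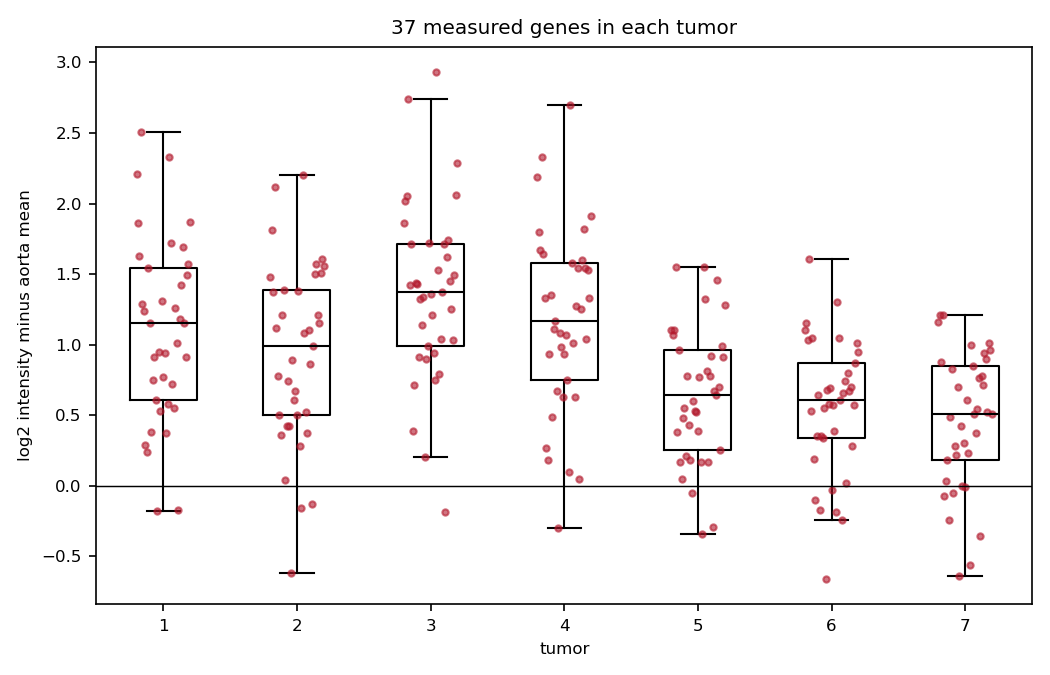
Log2 intensity of each of the 37 genes (points) minus its mean in the 4 aortas, by tumor; boxes show quartiles and medians, and whiskers reach the farthest points within 1.5 times the box height. The median is 1.14, 0.99, 1.37 and 1.17 in tumors 1 to 4 and 0.64, 0.61 and 0.51 in tumors 5 to 7.

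The title numbers of tumors 1 to 4 come before those of the normal samples and the numbers of tumors 5 to 7 after them. The labels do not say what the numbers stand for. The mean of tumors 1 to 4 was above that of tumors 5 to 7 for all 37 genes, by a median of 0.58 log2 units, from 0.10 (Fen1) to 1.25 (Pole), against a median of -0.02 over all genes. For 24 of the 37 genes every one of tumors 1 to 4 lay above every one of tumors 5 to 7, beside 4.67% of all genes, and for 0 genes was it the reverse, beside 4.45%. This difference was not tested. The separation held for Mcm5, whose lowest value in tumors 1 to 4 was 8.07 against a highest of 7.56 in tumors 5 to 7, and for Rrm1 (8.79 against 8.08). It did not hold for Pcna, with 9.42 against 9.71. Endothelial markers summed to 13.7 to 14.5 in tumors 1 to 4 and to 13.9, 14.2 and 13.7 in tumors 5 to 7, and skeletal muscle markers to 12.9, 13.9, 10.6 and 12.3 against 8.6, 8.6 and 13.1. Adipocyte markers summed to 10.0, 8.4, 8.6 and 12.2 in tumors 1 to 4, against 13.8, 13.2 and 9.2 in tumors 5 to 7, and neutrophil markers to 10.3, 11.8, 10.0 and 9.4, against 9.2, 8.6 and 10.8. The part of these cell types in the difference was not tested.

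Each set of tumors was also fitted alone against the normal tissues. With tumors 1 to 4, 33 genes were higher and 0 lower than in aorta (median 1.25), beside 19.8% and 18.5% of all genes. Against muscle 33 were higher and 1 lower, beside 24.4% and 24.3%. With tumors 5 to 7, 25 were higher and 2 lower than in aorta (median 0.62), beside 15.6% and 13.8% of all genes. Against muscle 27 were higher and 3 lower, beside 23.7% and 20.5%. The 2 genes lower than in aorta were Gins4 (-0.45, adjusted p = 0.0246) and Pold2 (-0.37, adjusted p = 0.0255). Mcm6 was among the genes not called with tumors 5 to 7 (0.27, adjusted p = 0.176).

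Further genes of the pathway were counted from lists chosen by function. Each count is to be read beside the 18.6% of all genes called higher and 17.5% called lower in tumors against aorta, and the 25.3% and 25.7% against muscle. Of 32 further replication factors, 17 were higher and 2 lower in tumors than in aorta, with a median of 0.32 log2 units, and 14 were higher and 5 lower than in muscle. Esco2, which acetylates cohesin in S phase, averaged 6.26 ± 0.57 in tumors and 4.61 ± 0.36 in aortas, a difference of 1.64 ± 0.23 (adjusted p = 1.6e-05). Cdca5, the cohesin protector sororin, rose by 1.21, and Pold3, another polymerase delta subunit, by 1.19. Orc3, an origin recognition subunit, was lower (-0.47 ± 0.12, adjusted p = 0.00457).

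Of 27 E2F and S-phase entry genes, 20 were higher and 2 lower in each comparison, with a median of 0.94 in both. Ccna2, the S-phase cyclin A2, had a lowest of 7.65, a median of 8.86 and a highest of 9.31 in tumors, against 5.84, 4.61, 4.63 and 4.83 in aortas and 4.27, 4.84 and 5.12 as lowest, median and highest in muscles. The difference was 3.58 ± 0.28 against aorta (12-fold, adjusted p = 1.6e-08) and 3.75 ± 0.23 against muscle (adjusted p = 8.68e-11). Ccnd1, the G1 cyclin D1, rose by 2.58 and by 2.91, and Dbf4, the activating subunit of the kinase that fires origins, by 1.93 and by 2.18. Rbl2, the pocket protein p130 that holds E2F genes silent in quiescent cells, was lower in both (-0.75 ± 0.12, adjusted p = 5.79e-05, and -0.98 ± 0.10, adjusted p = 7.2e-08).

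Of 16 other deoxynucleotide enzymes, 5 were higher and 5 lower than in aorta (median 0.02), beside 18.6% and 17.5% of all genes. Against muscle 6 were higher and 5 lower (median 0.14), beside 25.3% and 25.7%. Dctd, deoxycytidylate deaminase, rose by 2.12 ± 0.29 against aorta, and the cytosolic thymidine kinase Tk1 rose by 0.96 ± 0.13. Shmt1, which supplies folate units, averaged 6.07 ± 0.36 in tumors and 7.79 ± 0.19 in aortas, a difference of -1.72 ± 0.16 (adjusted p = 7.75e-08). Rrm2b, the reductase subunit that serves non-dividing cells, was lower than in aorta (-0.35 ± 0.11, adjusted p = 0.0165) and than in muscle (-0.67 ± 0.09, adjusted p = 3.63e-06), opposite to Rrm2. Samhd1, which degrades deoxynucleotides, was higher by 0.50 ± 0.12 (adjusted p = 0.00211) and by 0.95 ± 0.10. It is also abundant in macrophages, whose markers were higher in tumors, and their part in its difference was not tested.

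Of 14 further chromatin and histone chaperone genes, 9 were higher and 0 lower than in aorta (median 0.50), and 10 were higher and 2 lower than in muscle. Hells, a remodeller needed for DNA methylation, rose by 1.93 ± 0.26 against aorta (adjusted p = 8.3e-06), and relative to muscle by 2.13 ± 0.21. Mms22l, which acts at stalled forks, rose by 1.48 and by 1.80, and Asf1b, the histone chaperone of dividing cells, by 1.40 and by 1.92.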

How the data were processed

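The authors deposited 1 table of log2 intensity for 19 Affymetrix arrays; that the scale is log2 was read from its values, 1.59 to 13.78 with array medians of 5.35 to 5.48. The RNA came from a Qiagen miRNeasy extraction and was labelled with biotin by Affymetrix protocols, per the labels. Partek 6.6 is named in the submitters' processing notes; how the values were normalized is not given in the sources used here. Precision is limited by the number of arrays, and no measure of signal over background was used.

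Of 41345 probe sets, 23521 carried a single symbol in GEO's platform annotation, 1814 several and 16010 none. Per gene, the single-symbol probe set with the highest mean was kept, which left 22180 genes, of which 1082 had more than 1 such probe set. Groups came from the labels' tissue type. A limma 3.58.1 model (R 4.3.3, lmFit and eBayes, two-sided) with a mean for each of the 4 tissues was fitted to all arrays, with Benjamini-Hochberg adjustment over all genes and a threshold of 0.05. The fit was tested on simulated data. Tables and figures used Python 3.11.15, pandas 2.3.3 and matplotlib 3.10.9. Promoters came from RefSeq (GRCm38.p6).

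The members, lists, tests and alternatives were chosen with earlier results of these data known. Values by sample are given for the gene with the largest difference from aorta in each role, for genes not called in a tumor comparison and for Pcna. In each further list the 3 largest differences from aorta past the threshold and the most negative one are named, with Rrm2b and Samhd1. Other genes named with values were chosen after their values were seen. Alternatives were median, quantile and housekeeping-gene scaling (14 genes), dim genes left out, means over probe sets, eBayes trend and robust options, compared groups only, stricter thresholds, each muscle alone, subsets of tumors by title number and leaving out each array. Subsets of tumors and aortas by marker level were added after seeing the data.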

Additional observations from a re-analysis of the deposited data

Results flagged for a closer look

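Within groups of 4 or 7 samples, 148 groups of a gene's values were examined for a sample far from the others, and 6 stood out, where chance flags about 1 in 20. Cdt1 was high in quadriceps 1 (6.28), Prim1 in aorta 4 (5.74), Rrm2 in aorta 1 (5.60), Tyms in sternocleidomastoid 2 (6.88) and Chaf1a in aorta 1 (5.07), and Chaf1b was low in quadriceps 4 (4.88). No tumor stood out in this way. The dimmer of the Fen1 probe sets, which the rule for choosing probe sets leaves out, was higher in tumors than in aorta by 0.88 log2 units (adjusted p = 0.000174), with each tumor (5.46, 5.69, 5.72, 5.28, 5.07, 4.80 and 5.15) above each aorta (4.49, 4.46, 4.39 and 4.38).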

How the results depend on the processing

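No paired analysis was possible because the labels give no replicate numbers. Over all alternatives, 34 of 2296 single-gene values had the other sign and 139 lay on the other side of the threshold; the cause was not tested. Requiring a 2-fold difference left 16 genes higher and 0 lower than in aorta, 20 and 0 for tumors against muscle, and 1 and 0 for aorta against muscle. Of all 22180 genes, 1261 were higher and 1308 lower than in aorta at this cut. For tumors against muscle these were 2140 and 1723, and for aorta against muscle 1054 and 939. Genes lower in tumors than in aorta numbered 1 with quantile normalization, 1 with housekeeping centring and 2 with tumors 5 to 7 alone. Leaving out single arrays gave 0 to 1. Of all genes, 3820, 7029 and 3056 were lower in these settings, and 3444 to 4002 without single arrays. Genes lower than in muscle numbered 2 with median centring, 2 with housekeeping centring and 3 with tumors 5 to 7. Single arrays gave 1 to 2. Of all genes, 6968, 9590 and 4543 were lower in these settings, and 5303 to 5622 without single arrays. Genes higher in aorta than in muscle numbered 8 with only the compared groups and 2 at an adjusted p below 0.01. Single arrays gave 2 to 5 higher and 5 to 6 lower. Of all genes, 4927 and 2720 were higher in these 2 settings. Without single arrays 3257 to 3746 were higher and 2961 to 3398 lower. Leaving out single arrays gave 30 to 32 genes higher than in aorta, 29 to 33 higher than in muscle, 0 in every case between the muscles, and an SD of the tumors' mean of 0.295 to 0.375. Those fits called 3607 to 4275 of all genes higher than in aorta and 5435 to 5746 higher than in muscle. Between the muscles they called 25 to 57 higher and 26 to 51 lower in sternocleidomastoid. Housekeeping centring shifted the median of all genes to -0.20 in both tumor comparisons, with 2749 higher and 7029 lower against aorta (4131 and 3892 as deposited) and 4365 and 9590 against muscle (5617 and 5691); median centring gave 5160 and 6968 against muscle. In the further lists, lower counts became 4 (quantile) and 5 (housekeeping) for replication factors against aorta, 10 against muscle, 5 for E2F genes against muscle, and 2 (housekeeping) and 1 (mean over probe sets) for chromatin genes against aorta.

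Sign changes touched only genes not called in the values as deposited. Against aorta, Orc6 became -0.01 with housekeeping centring and -0.10 with tumors 5 to 7, and Cdc45 became -0.00124 with tumors 5 to 7. Pold2 became -0.03 (quantile), -0.15 (housekeeping), -0.37 (tumors 5 to 7) and -0.07 (aortas 1 and 2 left out), and ran from -0.10 (without tumor 3) to 0.12 (without tumor 7) when single arrays were left out. Fen1 became 0.36 (adjusted p = 0.00459) as the mean over its probe sets. Against muscle, Pola2 became 0.14 (sternocleidomastoid alone), 0.24 (tumors 1 to 4), 0.14 (tumors 3, 5 and 6), 0.10 (tumors 4 and 5 left out) and ran from -0.15 to 0.08 without single arrays. Rfc2 became -0.02 and Rrm1 -0.19 with tumors 5 to 7. Fen1 became -0.05 (median), -0.16 (housekeeping), -0.12 (quadriceps alone), -0.05 (tumors 5 to 7), -0.01 (tumors 4 and 5 left out) and ran from -0.03 to 0.05 without single arrays. Leaving out dim genes kept 29 of the 37.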

Other observations

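Some genes of the further lists were called lower in tumors than in muscle. These were chosen after their values were seen. E2f6, a repressor of the E2F family, had tumor values of 6.71 to 7.93 with a median of 7.69, against 7.71, 8.20, 7.90 and 8.14 in aortas and 9.92, 10.05 and 10.23 as lowest, median and highest in muscles. It was lower in tumors than in muscle (-2.45 ± 0.14 log2 units, adjusted p = 3.82e-11), while its difference from aorta was -0.37 ± 0.17 (adjusted p = 0.107, limma). Rpa1 and Rpa2, subunits of the complex that coats single-stranded DNA, were higher in tumors than in aorta by 0.55 ± 0.15 and 0.56 ± 0.15 (adjusted p = 0.00632 and 0.00574). Against muscle they were lower (-0.39 ± 0.12 and -0.83 ± 0.12, adjusted p = 0.0127 and 1.04e-05). Rpa1 ran from 6.90 to 7.97 in tumors and from 7.65 to 8.21 in muscles, and tumors 1, 3 and 4 (7.97, 7.78 and 7.69) lay inside the muscle range. Rpa2 averaged 6.69 ± 0.31 in tumors, 6.13 ± 0.29 in aortas, 7.60 in quadriceps and 7.44 in sternocleidomastoid.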
